A study of Mus musculus with 2 samples.

Results

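The cells described here carried transcripts of *Trpc4*, *Onecut2*, *Sp8* and *Pnoc* in the E16.5 mouse brain, and they were chosen by the measured counts of these genes. A cell was a member if it held at least 20 transcripts of the gene panel and at least 3 counts of the 4 genes, with at least 2 of the 4 genes above 0. These counts also had to make up at least 3% of the cell's panel transcripts and to exceed the sum of *Irs4*, *Calcr* and *Baiap3*, and *Lhx6* had to lie below 2 counts. By this rule 4075 of the 156481 cells with at least 20 transcripts were members. The control section held 427 of them among 55231 such cells, and the *Dnmt1* knockout (KO) section held 3648 among 101250.

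Both sections had been measured by MERFISH, which reads fluorescent barcodes over repeated imaging rounds to identify single RNA molecules in place. The control was 1 coronal section, 10 µm thick, of an *Sst-Cre/tdTomato* embryo, and the KO was 1 such section of an *Sst-Cre/tdTomato/Dnmt1 loxp2* embryo. Both genotypes carried Cre recombinase under control of *Sst*, which encodes the neuropeptide somatostatin, together with the Cre-dependent reporter tdTomato. The KO in addition carried *Dnmt1*, the gene of a DNA methyltransferase, flanked by loxP sites, so that Cre removes part of it in cells that have made *Sst*. *Dnmt1* was not on the panel, so its loss could not be checked here. The study used the sections to ask how losing *Dnmt1* from somatostatin cells alters the composition of the embryonic brain. Each group was 1 section, so no difference between the groups has a replicate check. Genotype cannot be told apart from anything else that differed between the sections, such as depth or the exact plane. The study describes the planes of the sections as comparable. Whether both were imaged in the same run is not given in the sources used here.

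*Sp8* encodes a zinc finger transcription factor known from interneurons born in the lateral and caudal ganglionic eminences, the ventral germinal zones of the forebrain. *Onecut2* encodes a transcription factor with a cut domain and a homeodomain that acts in developing neurons. *Trpc4* encodes a calcium-permeable cation channel that opens downstream of membrane receptors, and *Pnoc* encodes the precursor of nociceptin, a peptide that signals through the receptor made from *Oprl1*. *Lhx6*, which the rule kept low, marks interneurons of the medial ganglionic eminence, the source of most somatostatin cells.

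The sections differed in depth. The control held 108533 segmented cells with a median of 20 panel transcripts, and the KO held 110004 with a median of 101. The minimum of 20 transcripts was reached by 50.9% of control cells and 92.0% of KO cells, and barcodes assigned to no gene (blanks) took 0.496% and 0.486% of transcripts. Member cells were deeper than the other cells over the minimum, with a median of 47 against 34 transcripts in the control and 142 against 108 in the KO. Their median segmented volume was 1330 µm3 against 1234 µm3 in the control and 915 µm3 against 872 µm3 in the KO. No cell identifier occurred in both sections (0 shared).

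*Onecut2* was the most abundant of the 4 genes in control members, at 29895 counts per 1000000 panel transcripts (CPM) against 2002 CPM in the other cells. *Trpc4* stood at 24080 against 1310 CPM, *Sp8* at 18649 against 904 CPM and *Pnoc* at 8844 against 459 CPM. In KO members the order was the same, with *Onecut2* at 21926 CPM, *Trpc4* at 19355 CPM, *Sp8* at 10349 CPM and *Pnoc* at 5171 CPM. These values chose the cells and are given as a description. The control section held 11.5% of its *Trpc4* counts in member cells and the KO section 40%, and for *Sp8* these shares were 11.8% and 39.0%.

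Members differed in which gene led. In the control, *Onecut2* alone had the most counts in 36.8% of members, *Trpc4* in 28.6%, *Sp8* in 17.1% and *Pnoc* in 4.92%. In the KO, *Trpc4* led in 38.2%, *Onecut2* in 34.0%, *Sp8* in 12.8% and *Pnoc* in 2.3%. Exactly 2 of the 4 genes were present in 318 control and 1657 KO members, 3 genes in 102 and 1442, and all 4 genes in 7 and 549. Many control members therefore sat at the limit of the rule. Their median sum of the 4 genes was 3 counts, with 217 members at exactly 3 and a further 493 cells left out only because their sum was 2. In the KO the median sum was 7 counts, 318 members were at 3, and 232 cells missed the rule only by a sum of 2. The share limit acted the other way. A share between 2% and 3% alone kept out 5 control cells and 894 KO cells. *Lhx6* alone kept out 25 and 274 cells, and the limit set by *Irs4*, *Calcr* and *Baiap3* kept out 5 and 26.

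To compare how often the 4 genes met in a cell at 1 depth, every cell of at least 25 transcripts was thinned at random to 25. After thinning, *Trpc4* was present in 8.94% of the 1130 control cells with *Sp8* and in 3.39% of cells without it. In the KO, *Trpc4* was present in 16.6% of the 2680 cells with *Sp8* and in 4.15% of the others. *Onecut2* was present in 8.58% of the control cells with *Sp8* and in 7.99% of the KO ones, against 4.59% and 4.32% of cells without *Sp8*. *Pnoc* cells held *Onecut2* in 10.6% of control and 13.0% of KO cases, against 4.61% and 4.28% of cells without *Pnoc*. Each of the 12 pairings of a gene with another was more frequent than in the remaining cells of the same section. The 4 genes are those of the rule, so this is a description. The remaining cells also include classes with few transcripts of any of them, such as control mesenchymal cells, where *Trpc4* was present in 0.151%.

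The member cells clustered on both sides of the midline in the lower middle of the section. Positions were given relative to the midline and a height of 0, both taken from the 2 striatal groups of cells with at least 2 counts of *Rxrg*, with positive heights toward the cortex. Within 500 µm of the midline lay 80.3% of control and 90.4% of KO members, against 25.2% and 23.9% of all cells over the minimum. After the map had been seen, a medial zone was drawn up to 600 µm from the midline at heights from -600 to 400 µm. A ventral zone below it reached down to -1200 µm and out to 1000 µm. The medial zone held 306 of 427 control members (71.7%, 95% interval 67.1 to 75.9%) and 2885 of 3648 KO members (79.1%, 77.7 to 80.4%). It held 11.7% and 10.5% of all cells over the minimum. The ventral zone held 66 control (15.5%) and 461 KO members (12.6%), and 55 (12.9%) and 302 (8.28%) lay elsewhere. All intervals of shares are exact binomial ones and those of sums of counts exact Poisson ones, and both cover counting error only.

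**Figure D1:**
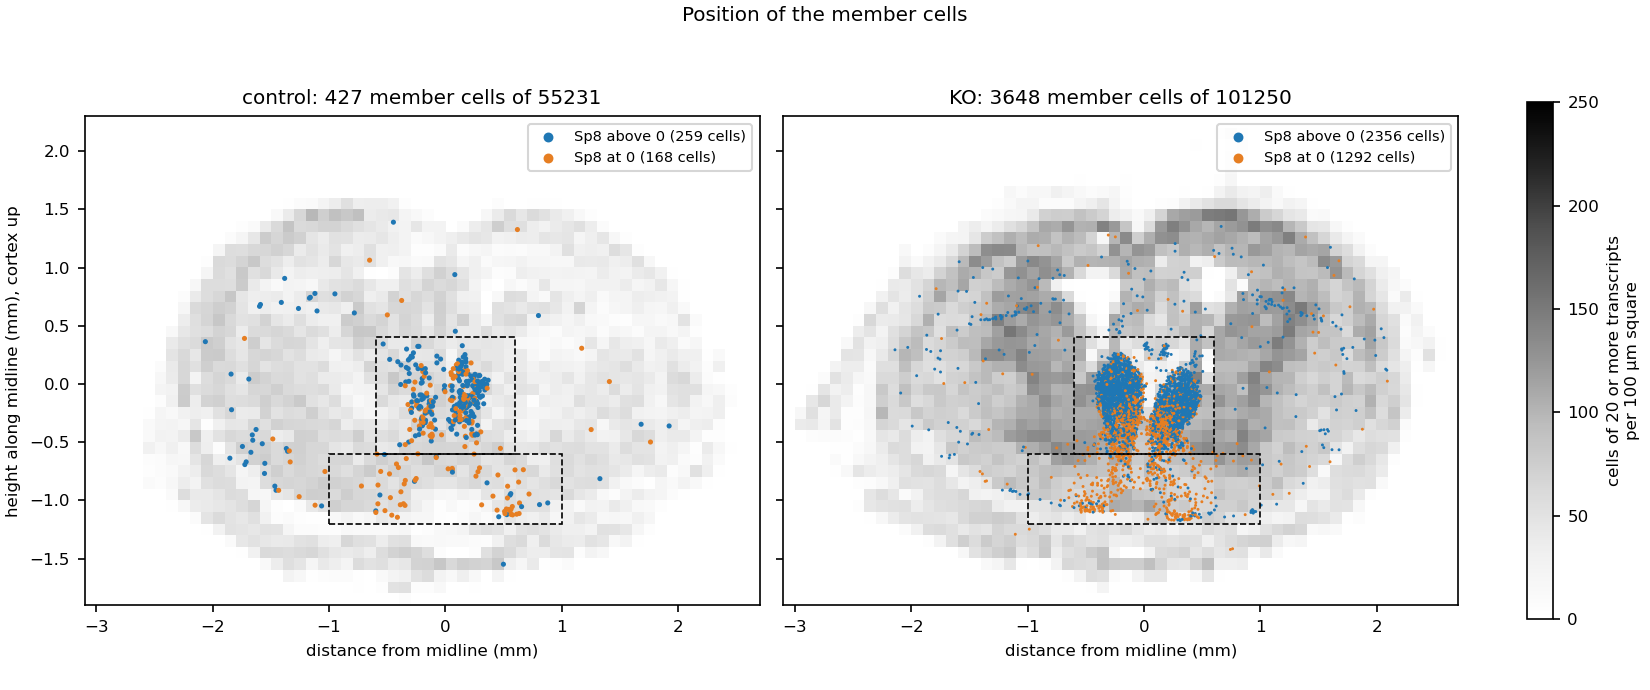
Position of the member cells in the control section (left) and the KO section (right), with distance from the midline and height along it in mm, cortex up. Points are member cells with *Sp8* above 0 (blue, 259 control and 2356 KO cells) or at 0 (orange, 168 and 1292 cells), grey squares give the number of cells with at least 20 transcripts per 100 µm square, and dashed boxes are the medial zone (upper) and the ventral zone (lower). The medial zone held 71.7% of control and 79.1% of KO members.

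By the transcripts of pallial and subpallial genes in the cells that are not members, 4.92% of control and 4.00% of KO members lay in pallial tissue, the region of the developing cortex. The subpallial region held 42.4% of control and 64.7% of KO members, and the remaining 52.7% and 31.3% lay where the genes of both regions together stayed under 4% of transcripts. Members lay close to each other. Neighbours within 50 µm were counted for each member in turn, so a cell near several members counts several times. Of the neighbours over the minimum counted in this way for control members, 10.2% were members too, against 0.773% of the section. No other member lay within that distance of 20.1% of control members. In the KO 46.5% of the neighbours so counted were members, against 3.60% of the section, and 5.18% of members had no member neighbour. As distinct cells, 7000 cells that were not members in the control and 25392 in the KO lay within 50 µm of a member. With cells thinned to 25 transcripts these shares of neighbours were 5.29% and 8.17%.

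*Sp8* followed height among the members. Members with *Sp8* had a median height of -104 µm in the control and -108 µm in the KO, and members without it of -338 µm and -401 µm. *Sp8* was present in 67.3% of control and 69.9% of KO members of the medial zone, but in 21.2% and 21.0% of those of the ventral zone. From the lowest to the highest 200 µm step within 600 µm of the midline, the share with *Sp8* ran from 13.6% (3 of 22 cells) to 100% (17 of 17) in the control and from 19.6% (28 of 143) to 88.3% (83 of 94) in the KO. Members were most frequent just below height 0, where they made up 8.0% of control and 43.6% of KO cells over the minimum. *Sp8* is part of the rule, and a member without it had to hold at least 2 of *Trpc4*, *Onecut2* and *Pnoc*, so these shares describe in part which genes admitted a cell at each height.

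**Figure D2:**
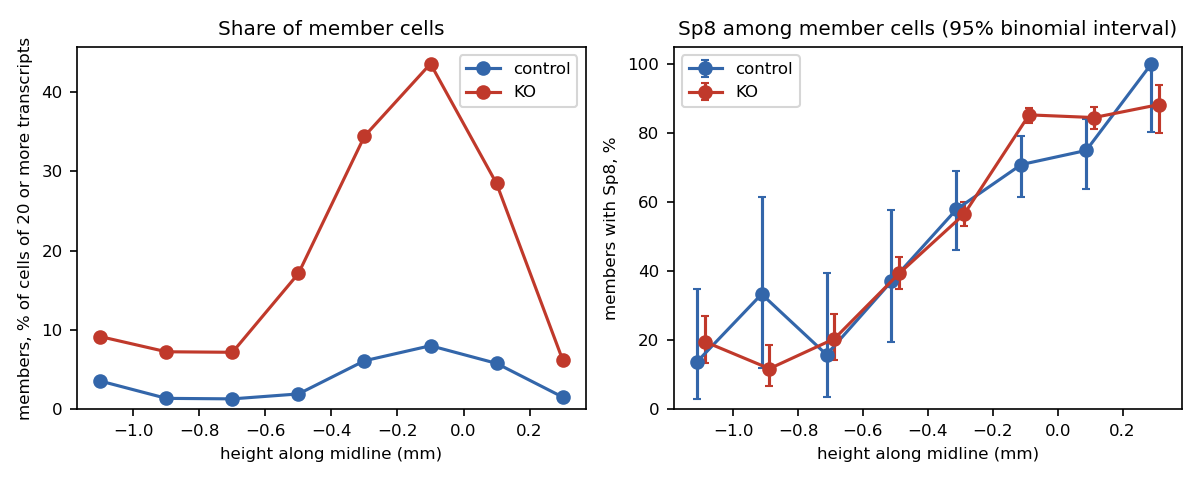
Share of member cells among cells with at least 20 transcripts (left, percent) and share of the member cells with *Sp8* (right, percent, bars are exact binomial 95% intervals) in 200 µm steps of height along the midline, in mm, within 600 µm of it. Blue is the control and red the KO section. Members peaked in the same step in both sections, at 8.0% and 43.6%, and *Sp8* was present in 13.6% and 19.6% of members in the lowest step and in 100% and 88.3% in the highest.

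The share of member cells was 0.773% in the control (0.702 to 0.850%) and 3.60% in the KO (3.49 to 3.72%), a ratio of 4.66 KO over control. This ratio depended on depth. With every cell of at least 25 transcripts thinned to 25 before the rule, 131 of 43884 control cells (0.299%) and 508 of 99572 KO cells (0.510%) were members, a ratio of 1.71. Shallower cells dropped out, so 43884 of 108533 segmented control cells entered against 99572 of 110004 KO ones. The thinned ratios thus set the deeper part of the control cells against most KO cells. With KO transcripts thinned to the mean depth of the control the ratio was 1.86. In the medial zone members made up 4.73% of control and 27.2% of KO cells over the minimum, a ratio of 5.76, and after thinning 2.10% and 4.00%, a ratio of 1.91. The hemispheres of the control differed, with 3.42% members left and 6.19% right of the midline in the medial zone, whereas the KO had 28.2% and 26.2%. Over all decoded molecules, inside cells or not, the share of the 4 genes together was 1.23 times as high in the KO. The part of the plane of section in these ratios cannot be told apart from that of genotype.

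**Figure D3:**
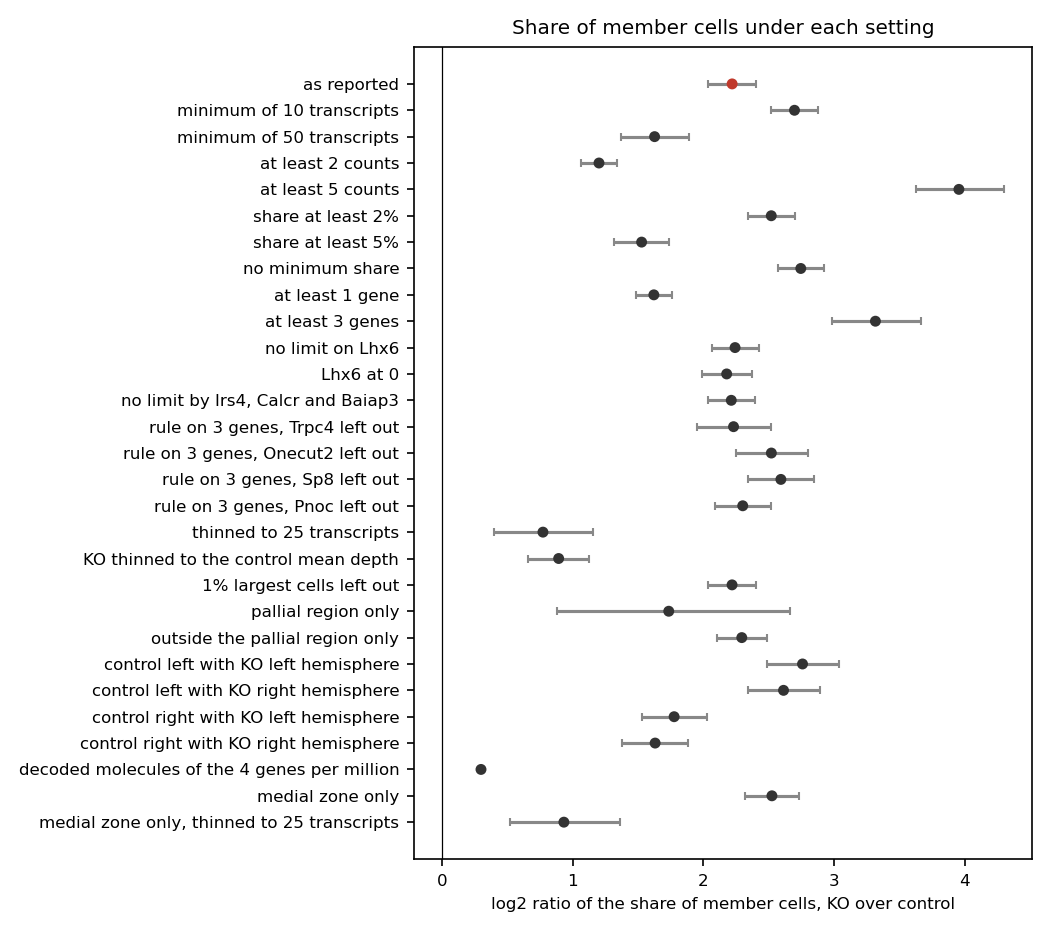
Log2 ratio of the share of member cells, KO over control, as reported (red, 2.22) and with 1 setting of the rule, depth or area changed at a time (black). Bars pair opposite ends of the exact binomial 95% intervals of both shares, and the ratio of decoded molecules has none. All values lie above 0, from 0.30 for decoded molecules to 3.96 with at least 5 counts, and thinning to 25 transcripts gives 0.77.

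The 4 genes were also pooled over all segmented cells of the medial zone, as a description, since the zone was drawn around members that these genes had chosen and that were mostly KO cells. *Trpc4* stood at 4548 CPM in the control and 9302 CPM in the KO, a ratio of 2.05 (1.90 to 2.20). *Pnoc* stood at 1434 and 2610 CPM (ratio 1.82, 1.60 to 2.08), *Sp8* at 3943 and 5488 CPM (1.39, 1.28 to 1.51) and *Onecut2* at 10839 and 12951 CPM (1.19, 1.14 to 1.26). In the ventral zone the ratios were 1.20 for *Trpc4*, 1.27 for *Onecut2*, 1.33 for *Pnoc* and 1.13 (0.868 to 1.47) for *Sp8*. Elsewhere *Onecut2* and *Sp8* were lower in the KO, with ratios of 0.870 and 0.790, and *Trpc4* (1.07) and *Pnoc* (1.03, 0.920 to 1.15) stood near 1. Across the panel in the medial zone, 27 of 242 genes (11.2%) were higher and 10 (4.13%) lower in the KO past 2-fold, over genes outside the rule whose mean CPM reached the median of the panel. *Trpc4* was the 1 gene of the 4 past 2-fold.

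Next, the other genes of the member cells were compared with those of all other cells over the minimum in the same section. In the control 18 of 242 genes (7.44%) were higher and 83 (34.3%) lower past 2-fold in members, and in the KO 27 (11.2%) were higher and 95 (39.3%) lower. Of 222 genes tested in both sections, 14 were higher and 74 lower in both, and no gene (0) was called in opposite directions. The 14 were *Adgra1*, *Ankfn1*, *Cacng5*, *Dlk1*, *Dlx1*, *Gad1*, *Grm8*, *Grpr*, *Nefh*, *Nnat*, *Nrp2*, *Oprl1*, *Prox1* and *Rasgrf2*. Against nearer cells fewer genes were higher. Over other cells within 100 µm of a member 4 genes (1.65%) were higher in the control and 13 (5.37%) in the KO, and for medial members over the other cells of the medial zone 15 (6.2%) and 8 (3.31%). A single gene, *Nnat*, took so many transcripts of the members that it lowered the share of all others. Without *Nnat* in the totals every log2 ratio was higher by 0.34 in the control and 0.31 in the KO, and 34 genes were then higher and 64 lower in the control, and 45 higher and 79 lower in the KO.

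*Nnat*, an imprinted gene that encodes a small membrane protein of the endoplasmic reticulum, made up 26.7% of the transcripts of control members and 24.4% of those of KO members. In the other cells it made up 7.34% and 6.18%, so the log2 ratio was 1.86 (1.82 to 1.91) and 1.98 (1.97 to 1.99). The cells around the members were rich in it too, since the other cells of the medial zone had 20.9% and 15.3%. Measured against these, *Nnat* was higher in the medial members by 0.65 in the control and 0.85 in the KO on the log2 scale.

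**Figure D4:**
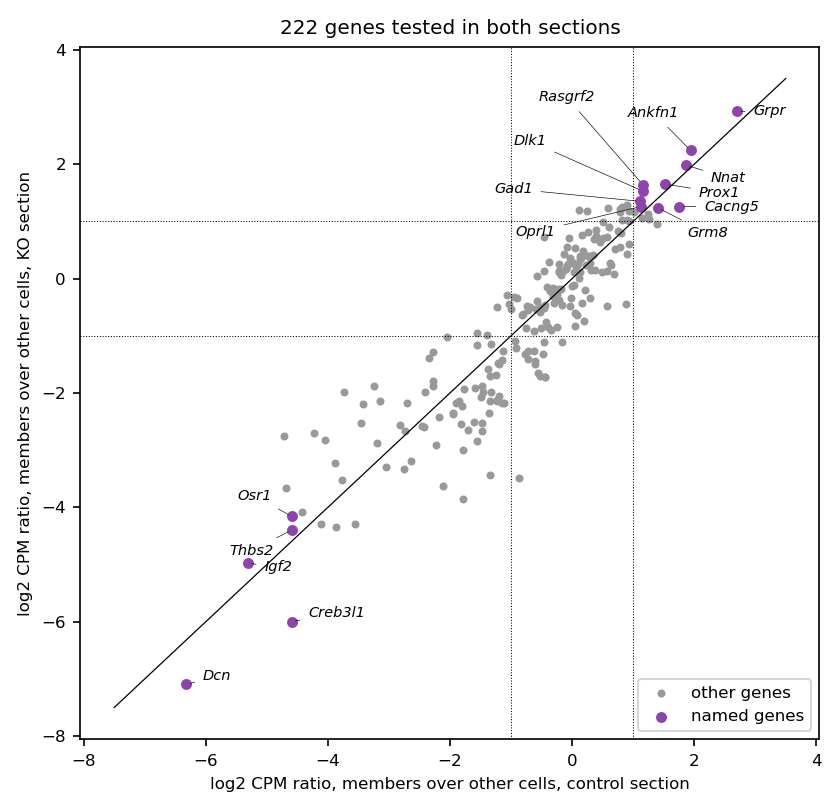
Log2 ratio of CPM in member cells over all other cells with at least 20 transcripts, in the control section (horizontal axis) and in the KO section (vertical axis), for 222 genes tested in both. Dotted lines mark 2-fold, the solid line equality and purple points the genes with the 10 highest and 5 lowest mean ratios. *Grpr* has the highest ratios, 2.7 and 2.93, and *Dcn* the lowest, -6.32 and -7.09.

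Among receptors and channels, *Grpr*, the receptor of gastrin-releasing peptide, had the highest ratio. It stood at 1202 CPM in control members against 185 CPM in the other cells. In the KO it stood at 1597 against 210 CPM, and the log2 ratios were 2.7 and 2.93. Most members nevertheless held no *Grpr*. After thinning to 25 transcripts, *Grpr* was present in 10 of 394 control members (2.54%) and 107 of 3642 KO members (2.94%). The other cells had 0.451% and 0.447%. Without thinning, *Grpr* was present in 3.28% of control and 13.2% of KO members, against 0.748% and 2.21% of other cells. *Oprl1*, the receptor of the peptide that *Pnoc* encodes, stood at 6296 against 2892 CPM and 6049 against 2525 CPM, ratios of 1.12 and 1.26. *Cacng5*, an auxiliary subunit of AMPA receptors, had ratios of 1.75 and 1.26, and *Grm8*, a metabotropic glutamate receptor, of 1.41 and 1.24. *Ankfn1*, at 1202 against 313 CPM and 1576 against 333 CPM, had ratios of 1.94 and 2.24. Among signalling genes *Rasgrf2*, a Ras exchange factor, had ratios of 1.16 and 1.64 and *Dlk1*, an imprinted Notch-related ligand, of 1.16 and 1.53. Over other cells within 100 µm of a member, however, *Rasgrf2* stood at -0.037 (-0.87 to 0.71) in the control and 1.05 in the KO.

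Of the GABAergic genes, *Gad1* and *Dlx1* were higher past 2-fold in both sections. *Gad1*, which makes the enzyme of GABA synthesis, stood at 15236 against 7059 CPM in the control and 15660 against 6133 CPM in the KO, log2 ratios of 1.11 (0.92 to 1.29) and 1.35 (1.31 to 1.39). *Gad2* had ratios of 1.38 and 0.95 and *Dlx1*, a transcription factor of ventral forebrain neurons, of 1.26 and 1.05. Of the 4 measured genes of the GABAergic list, 3 were higher past 2-fold in the control and 2 in the KO, where 7.44% and 11.2% of all genes tested were. *Slc32a1*, the vesicular transporter of GABA, had ratios of 0.61 (0.20 to 1.0) and 0.91 (0.84 to 0.98). At 25 transcripts a cell it was present in 6.35% (4.15 to 9.22%) of control members against 5.10% of other cells, a difference within counting error, and in 11.8% (10.8 to 12.9%) of KO members against 5.6%. At 25 transcripts a cell, *Gad1* was present in 30.2% of control and 31.4% of KO members, against 14.8% and 12.4% of the other cells and 5.26% and 3.94% of microglia, which do not make GABA. *Slc17a6*, the vesicular glutamate transporter of subcortical neurons, was present in 4.57% and 4.94% of members, 2.72% and 3.58% of other cells and 1.44% and 1.52% of microglia.

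Interneuron genes were mixed. *Prox1*, a homeobox gene of interneurons from the caudal ganglionic eminence, stood at 5479 against 1897 CPM in the control and 5426 against 1727 CPM in the KO, ratios of 1.53 (1.21 to 1.84) and 1.65 (1.58 to 1.72). After thinning to 25 transcripts, *Prox1* was present in 9.39% of control and 10.1% of KO members, against 4.10% and 3.80% of other cells. *Meis2*, a homeobox gene of lateral eminence derivatives, was lower by -1.14 and -1.27. Of the interneuron genes of the lateral and caudal eminences, 1 of 7 was higher and 2 lower in the control, and 3 of 9 were higher and 3 lower in the KO, where *Sp9* (1.26) and *Calb2* (1.10) joined *Prox1*. Over all genes 7.44% were higher and 34.3% lower in the control, and 11.2% and 39.3% in the KO. For the medial eminence list 0 of 7 genes were higher and 1 lower in the control, *Npy*. In the KO 1 of 8 was higher, *Pvalb*, and 3 were lower, *Sox6*, *Npy* and *Nos1*. The rule kept *Lhx6* low and counted *Sp8*, so the counts of both interneuron lists were in part set by the rule and are a description.

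Many genes of striatal and cortical projection neurons were lower in members. On the list of striatal projection neurons 7 of 10 genes were lower in the control, as were 8 of 11 in the KO, with a median log2 ratio of -1.46 and -2.18. Over all genes tested the median was -0.44 and -0.48, and 34.3% and 39.3% were lower. *Ebf1*, a transcription factor of direct-pathway neurons, had ratios of -1.95 and -2.37 and the dopamine receptor *Drd1* of -1.78 and -2.99. *Isl1*, from the same list, went the other way, at 0.93 (0.50 to 1.33) and 1.0 (0.94 to 1.07). On the glutamatergic list 5 of 9 genes were lower in the control, as were 6 of 9 in the KO, among them the cortical genes *Slc17a7* (-1.78 and -3.85) and *Tbr1* (-1.49 and -2.07). *Slc17a6*, on the same list, was higher in members within 2-fold, at 0.89 (0.37 to 1.38) and 0.43 (0.33 to 0.53). By zone, *Tbr1* stood at 568 CPM in medial members of the control and 625 CPM in those of the KO. Ventral members had 10604 and 15129 CPM of it and members elsewhere 14247 and 11699 CPM. Of the progenitor genes 4 of 7 were lower in the control, as were 7 of 9 in the KO, with *Top2a*, made in dividing cells, at -1.70 and -2.64 and the cyclin *Ccnd2* at -1.21 and -1.48.

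The summed markers of vessels, microglia and mesenchyme were low, whereas those of oligodendrocyte precursors were mixed. The lowest ratios by the mean of both sections belonged to *Dcn*, the matrix proteoglycan decorin, at -6.32 and -7.09, *Creb3l1* at -4.59 and -6.0, the growth factor gene *Igf2* at -5.31 and -4.97, the matrix gene *Thbs2* at -4.59 and -4.39 and *Osr1*, a transcription factor of mesenchyme, at -4.59 and -4.16. The 4 tested mesenchymal markers were all lower past 2-fold in both sections, where 34.3% and 39.3% of all genes were. The summed level of all 5 mesenchymal markers on the panel was 1057 CPM in control and 816 CPM in KO members, against 25409 and 23781 CPM in the other cells. By the count of markers 0 members were mesenchymal in either section. Microglial markers marked 0 control and 18 KO members (0.493%), endothelial markers 2 and 37 and mural markers 0 and 17. Over all cells above the minimum the microglial class held 675 control and 1463 KO cells, the endothelial class 1190 and 4045 and the mural class 814 and 3154. In the control the summed markers of these 3 classes stood at 721, 1154 and 385 CPM in members against 3197, 6088 and 5160 CPM in the other cells, and in the KO at 521, 1772 and 912 CPM against 2340, 6516 and 5533 CPM. Markers of oligodendrocyte precursors, which include *Olig1* and *Olig2*, marked 15 control (3.51%) and 97 KO members (2.66%), at a summed 6633 and 3146 CPM against 8918 and 7303 CPM in other cells. *Pdgfra* was lower in members, at -4.71 and -2.76, but *Olig1* stood at 3412 against 2112 CPM in the control (0.69, 0.29 to 1.07) and 1046 against 993 CPM in the KO (0.07).

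The reporter line acts through *Sst*. The rule kept *Lhx6* low, which marks the source of most somatostatin cells, so a low share of *Sst* was in part set by the rule. *Sst* was rare in the members. At 25 transcripts a cell it was present in 6 of 394 control members (1.52%, 0.561 to 3.28%) and in 54 of 3642 KO members (1.48%, 1.12 to 1.93%). The other cells had 1.92% and 1.57% and microglia, which should lack it, 0.797% and 0.415%. Without thinning the members had 4.22% and 7.65% and the less deep other cells 2.81% and 5.68%. After thinning, no excess of *Sst* in the members over the rest of the section as a whole was thus detected. Pooled without thinning, *Sst* in the medial zone of the KO stood at 529 CPM (466 to 599) in members. All cells over the minimum there, members included, had 369 CPM (338 to 403). In the control the 2 values were 852 CPM (440 to 1488) and 469 CPM (384 to 567), with overlapping intervals. The medial excess of the KO did not hold in its ventral zone, where members had less, 396 CPM (269 to 562) against 950 CPM (897 to 1004). Outside both zones KO members had 1009 CPM (710 to 1391) against 872 CPM (854 to 889). In the control the intervals overlapped in both of these areas too. *Irs4*, *Calcr* and *Baiap3*, whose sum the rule kept below that of the 4 genes, were nevertheless present, for example *Calcr* at 769 against 226 CPM in the control and 821 against 191 CPM in the KO.

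Other cells with *Gad1* or *Gad2* were used as a closer comparison, 14399 in the control and 41734 in the KO. A single count of either gene admitted a cell, so cells of other types were among them. Members did not have to hold either gene. Without thinning, 45.4% of control and 79.1% of KO members had *Gad1*, and 34.7% and 72.0% had *Gad2*. Without thinning, *Gad1* was present in 6.81% of control and 12.1% of KO microglia and in 8.49% and 18.3% of endothelial cells. *Dcn* still stood at 1157 and 2669 CPM in the comparison cells. Of 218 genes tested in both sections, 25 (11.5%) had an interval above 0 in both and 71 (32.6%) below 0 in both. The genes named from here to the comparison of KO with control were chosen after their values had been seen, most of them as the highest or lowest by this rule. Highest were *Sncg*, which encodes gamma-synuclein, with log2 ratios of 2.45 and 2.37, *Grpr* with 1.98 and 2.43, *Ankfn1* with 1.60 and 2.02, *Bmp7*, a secreted signal of the BMP family, with 1.64 and 1.53, and *Prox1* with 1.49 and 1.62. *Pvalb*, from the medial eminence list, came next with 1.65 (0.53 to 2.65) and 1.10 (0.93 to 1.26). Lowest were *Rxrg*, a nuclear receptor of striatal neurons, with -3.67 and -4.14, *Dcn* with -2.59 and -4.43 and *Npy*, the gene of neuropeptide Y, with -3.26 and -3.27.

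Within the medial zone the members were also set against its other cells. Of 215 genes, 17 (7.91%) had an interval above 0 in both sections and 58 (27%) below 0. *Grpr* had the highest ratio in the control and by the mean of both sections, at 1562 against 278 CPM in the control and 1896 against 628 CPM in the KO. *Epha6*, a receptor of ephrins, had log2 ratios of 1.84 and 1.63, *Kcng1*, a potassium channel subunit, 1.09 and 1.70, and *Isl1* 1.12 and 0.96. The dopamine receptor gene *Drd2* had 1.22 and 0.99. Among the lowest were *Aldh1l1*, an enzyme gene of astrocytes, at -4.27 and -5.63, the transcription factor gene *Pou3f2* at -3.51 and -3.79, *Ednrb*, an endothelin receptor, at -2.80 and -4.40, *Top2a* at -2.87 and -4.10, *Mfge8* at -2.52 and -4.12, and *Dcn*, at 0 counts in medial control members and -4.93 in the KO. Of the genes highest against the whole section, *Cacng5* did not differ in direction from its surroundings by more than counting error, at -0.06 (-1.22 to 0.96) and -0.02, and *Dlk1* stood at -0.15 in the control.

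Members of the medial and the ventral zone had different genes. Of 217 genes, 15 (6.91%) had an interval above 0 for medial over ventral members in both sections and 34 (15.7%) below 0. The median log2 ratio over all genes tested was itself below 0, at -0.73 in the control and -0.58 in the KO. *Nnat* took 328908 CPM of medial and 172057 CPM of ventral members in the control, and 274777 and 141784 CPM in the KO. This lowered the CPM of the other genes of medial members. *Prox1* stood at 6815 CPM in medial and 795 CPM in ventral members of the control, and at 6010 and 486 CPM in the KO. *Sp9*, a relative of *Sp8*, stood at 4402 and 1060 CPM in the control and 7148 and 307 CPM in the KO. *Igfbpl1*, *Nfix* and *Meis2* were likewise higher in medial members, with log2 ratios between 2.08 for *Nfix* in the KO and 3.79 for *Nfix* in the control. *Tbr1*, a T-box transcription factor of glutamatergic neurons, ran the other way, at 568 against 10604 CPM in the control and 625 against 15129 CPM in the KO. *Spon1*, a secreted matrix protein, stood at 426 against 6628 CPM and 633 against 4702 CPM, and *Rgs4*, *Ptpru*, *Dgkk* and *Cabp7* were also higher in ventral members. *Gad1* did not follow this division, at 13205 CPM medially and 22269 CPM ventrally in the control but 15930 and 14669 CPM in the KO. *Slc17a6* was higher ventrally in the KO, at 4293 against 1734 CPM. In the control it stood at 3181 against 1846 CPM, from 12 and 26 counts, a difference within counting error.

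Members outside both zones stood apart again, although they were few (55 and 302). Of 204 genes, 34 (16.7%) had an interval above 0 for these members over medial ones in both sections and 6 (2.94%) below 0. The median log2 ratio over all genes tested was itself above 0, at 0.84 in the control and 0.32 in the KO. The larger share of *Nnat* in medial members lowered the CPM of their other genes, so the 2 counts are not balanced around 0. *Meis2* stood at 50543 CPM in the control and 62123 CPM in the KO, against 9300 and 19372 CPM in medial members. *Cxcl14*, a chemokine gene, stood at 6445 against 213 CPM and 4363 against 39.4 CPM, *Prdm8* at 7123 against 426 CPM and 3273 against 95.5 CPM, and *Wnt7b* at 2035 against 142 CPM and 5372 against 129 CPM. *Nnat* was lower, at 95658 against 328908 CPM in the control and 65178 against 274777 CPM in the KO. *Peg10*, another imprinted gene, was lowest here too, at 7123 and 3954 CPM, and highest in ventral members, at 60445 and 44365 CPM. *Prox1* (5088 and 8290 CPM) and *Sp9* (3731 and 6572 CPM) were present outside the zones as in the medial one, and *Sp8* was present in 70.9% and 80.1% of these members.

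**Figure D5:**
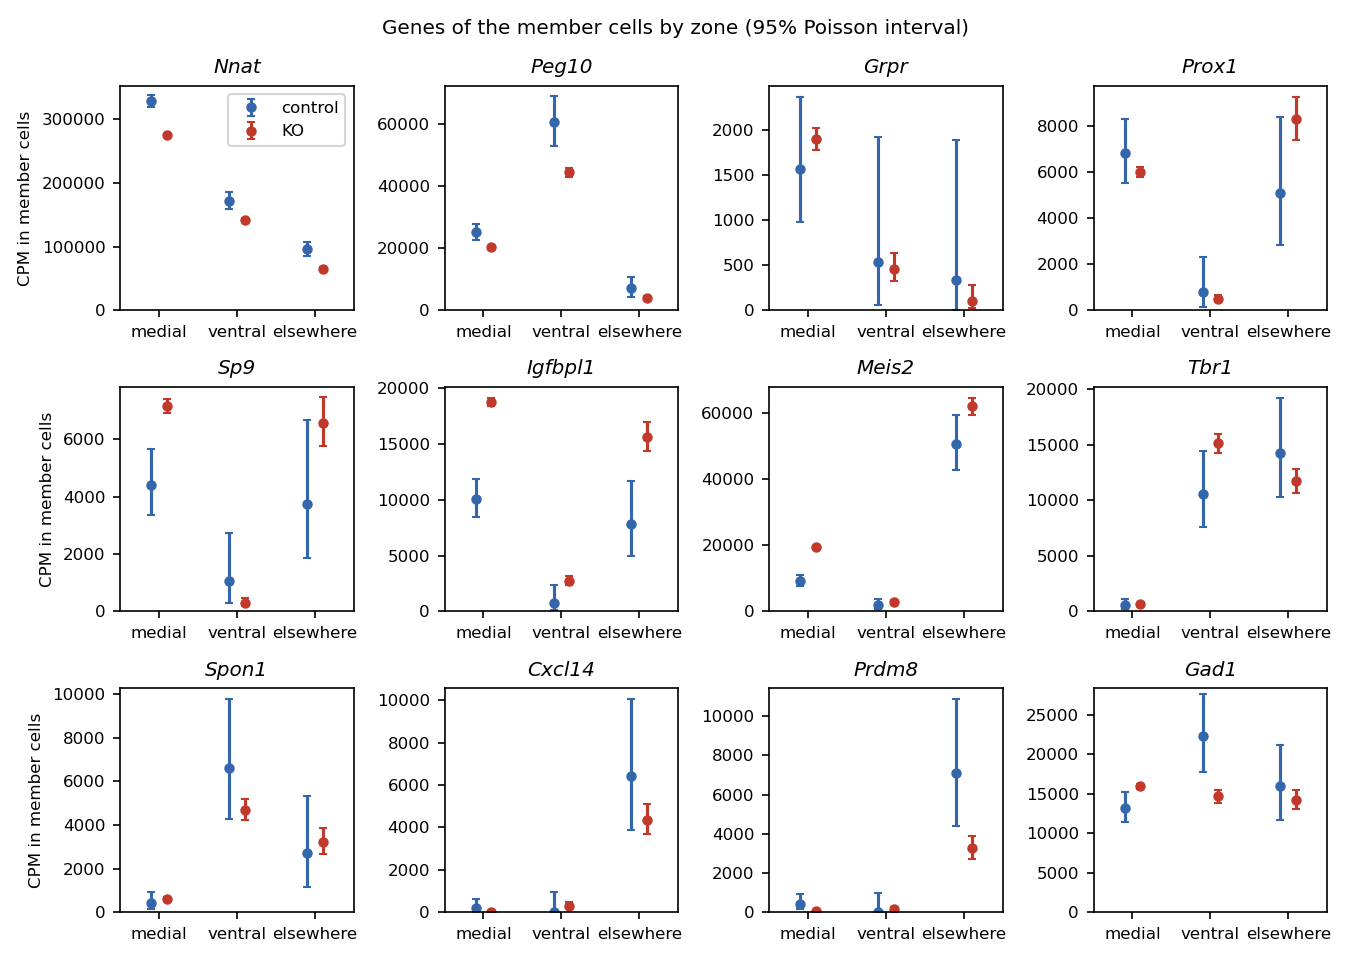
CPM of 12 genes in member cells of the medial zone, the ventral zone and elsewhere, in the control (blue, 306, 66 and 55 cells) and the KO section (red, 2885, 461 and 302 cells), with exact Poisson 95% intervals that are smaller than the point where no bar is seen. *Nnat* is highest in the medial zone, *Peg10* and *Spon1* in the ventral zone, and *Meis2*, *Cxcl14* and *Prdm8* elsewhere, in both sections, and *Tbr1* is lowest in the medial zone.

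Members with *Sp8* were also set beside members without it, as a description, since a member without *Sp8* had been admitted by at least 2 of *Trpc4*, *Onecut2* and *Pnoc*, so that different genes chose the sides. Of 214 genes, 11 (5.14%) had an interval above 0 in both sections and 8 (3.74%) below 0. *Sp9* stood at 5036 against 1841 CPM in the control and 7664 against 3251 CPM in the KO. *Meis2* stood at 15849 against 10930 CPM and 25641 against 7988 CPM, and *Top2a* at 4375 against 1496 CPM and 3818 against 995 CPM. *Sox9*, *Mfge8* and *Olig2* were higher with *Sp8* as well. Lower with *Sp8* were *Grin3a*, an NMDA receptor subunit, at 1734 against 5177 CPM and 1497 against 3359 CPM, *Fxyd6*, which regulates the sodium pump, at 27737 against 43028 CPM and 22292 against 33168 CPM, and *Bmp7*, *Olfm3*, *Syndig1* and *Ptprt*. *Sp8* itself was more frequent in the medial zone and elsewhere than in the ventral zone, so these differences overlap with those between zones.

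The cells around the members were compared with cells farther away, as a description, since the rule set which cells they surround and cells that narrowly missed it were not left out. In the control 22 of 243 genes (9.05%) were higher and 49 (20.2%) lower past 2-fold in other cells within 50 µm of a member than farther away, and in the KO 12 (4.94%) were higher and 41 (16.9%) lower. *Nnat* stood at 191089 against 57430 CPM in the control and 102670 against 48043 CPM in the KO. *Rasgrf2*, *Olig1* and *Slc17a6* were also higher near members in both sections, with log2 ratios of 1.69 and 1.77, 1.72 and 1.62, and 1.28 and 1.21. *Bcan*, a brain proteoglycan, had 1.31 and 1.35.

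Finally, members of the KO were compared with members of the control. Past 2-fold, 25 of 242 genes (10.3%) were higher and 23 (9.5%) lower in KO members. In the other cells of the sections 13 of 244 (5.33%) were higher and 4 (1.64%) lower. In members of the medial zone alone the counts were 41 (16.9%) and 27 (11.2%), and in all segmented cells of that zone 27 (11.2%) and 10 (4.13%). *Cd24a*, a surface glycoprotein of immature neurons, stood at 5047 CPM in control and 22173 CPM in KO members, a log2 ratio of 2.14 against 2.16 in the other cells. *Nkain3* had 1.94 (1.23 to 2.73) against 1.34, and *Arhgap36*, from 4 counts in control members, 1.67 (0.17 to 3.70) against 0.95. For these 3 genes the interval in members held the ratio of the other cells.

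*Gpr52*, an orphan receptor, had the highest ratio at 2.68 (0.67 to 5.87), from 2 counts in control and 367 in KO members, against 0.62 in the other cells. *Pdgfra*, a growth factor receptor of oligodendrocyte precursors, had 2.03 (0.33 to 4.46), from 3 and 352 counts, against 0.08. Among members chosen after thinning to 25 transcripts, *Gpr52* had 0 control and 3 KO counts and *Pdgfra* 2 and 2, too few to give a direction. Lower in KO members were *Mrc1*, a receptor of macrophages, at 2692 and 605 CPM (-2.15 against -0.87), *Prdm8* at 1298 and 302 CPM (-2.10 against -0.02), *Spp2* (-2.04 against -0.96), *Chrna2*, a nicotinic receptor subunit (-1.76 against -0.98), and *Olig1* at 3412 and 1046 CPM (-1.71 against -1.09). *Prdm8* had been found mainly in members outside both zones, which made up 12.9% of control and 8.28% of KO members, and the part of this makeup in its ratio was not tested. Of the GABAergic and interneuron genes, *Gad1* had a ratio of 0.04 (-0.15 to 0.23), *Gad2* of 0.21 (-0.04 to 0.46) and *Prox1* of -0.01 (-0.33 to 0.31). Others were higher in KO members within 2-fold, and in the other cells too. *Sp9* stood at 0.75 (0.38 to 1.14) against 0.31 in the other cells, *Dlx1* at 0.60 (0.27 to 0.94) against 0.81, *Slc32a1* at 0.54 (0.14 to 0.97) against 0.24 and *Meis2* at 0.52 (0.33 to 0.72) against 0.66. In medial members *Meis2* was past 2-fold, at 1.06 (0.78 to 1.35). *Nnat* stood at -0.13.

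Among the neuronal and progenitor lists, the progenitor genes had the lowest median in KO over control members. Of 7 measured genes 4 were lower past 2-fold, among them *Ccnd2*, *Sox9* and *Aldoc*, and 0 were higher, with a median log2 ratio of -1.0. Over all genes tested 9.5% were lower and 10.3% higher, with a median of 0.07. In the other cells 0 of 10 were lower and 2 higher, with a median of 0.32, where 1.64% of all genes were lower and 5.33% higher. *Ccnd2* stood at 39508 and 19507 CPM (-1.02 against -0.76) and *Sox9*, a transcription factor of neural stem cells, at 5912 and 2948 CPM (-1.0 against -0.47). *Top2a* was at 3172 and 2891 CPM. Markers of oligodendrocyte precursors differed alongside, with *Olig1* (-1.71) and *Olig2* (-1.38) lower and *Pdgfra* higher among the 4 tested. The summed level of all 5 precursor markers on the panel was 6633 CPM in control and 3146 CPM in KO members. The part of these markers in the difference of the progenitor list was not tested.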

How the data were processed

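Per the methods of the study, the authors imaged fresh-frozen sections on the MERSCOPE system with the Pan Neuro panel (500 genes and 50 blank barcodes), and the instrument decoded molecules and segmented cells. The deposited values were raw counts of molecules per cell and gene, without normalization, with cell positions in µm, volumes and a list of single molecules. Versions of the instrument's decoding and segmentation software are not given in the sources used here, and the authors' clusters were not used. Cells with at least 20 transcripts entered, blanks left out, using pandas 2.3.3, scipy 1.17.1 and numpy 2.4.6 under Python 3.11.15, and were plotted with matplotlib 3.10.9. The members and gene lists were chosen with earlier results of these data known. With 1 section per group no test was run. Counts were pooled over cells and scaled to 1000000 panel transcripts (CPM). Ratios are log2 without a pseudocount, and their interval pairs opposite ends of both 95% intervals, so it is wider than 95%. Genes other than the 8 of the rule were counted where their mean CPM reached the median gene of the panel, and were called past 2-fold. Against a count of 0, a ratio uses a floor of 3 counts. Named genes were the 10 highest and 5 lowest ratios of members over the rest by the mean of both sections, the 5 highest and 5 lowest KO over control, and examples of the fixed lists. Another class (microglia and so on) needed at least 3 counts and 2 of its markers and 3% of transcripts. Regions came from maps with a grid of 25 µm, blurred by a Gaussian of 50 µm SD. Counting and intervals were tested on simulated data. No doublet caller was run; the 1% of cells with the largest volume were left out as an alternative. Some results of single genes are not reported here.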

Additional observations from a re-analysis of the deposited data

How the results depend on the processing

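The log2 ratio of the share of members, KO over control (2.22), stayed above 0 in all 28 alternatives. With another minimum of transcripts it was 2.7 (10) and 1.63 (50), with another minimum of counts 1.20 (2) and 3.96 (5), with another share 2.52 (2%), 1.53 (5%) and 2.75 (none), and with another number of genes 1.62 (1 gene) and 3.32 (3 genes). Without *Onecut2* in the rule it was 2.52 and without *Sp8* 2.59. It was 0.77 with cells thinned to 25 transcripts, 0.89 with the KO thinned to control depth, 1.74 in the pallial region, 0.30 for decoded molecules, 2.52 in the medial zone and 0.93 there after thinning. Pairing the control left hemisphere with the KO left and right gave 2.76 and 2.61, and the control right 1.78 and 1.63. It moved by less than its counting interval in the other 7.

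The pallial share of members was 9.60% (control) and 10.1% (KO) with a limit of 40%, and in the KO 2.58% with 60% and 3.07% with more smoothing. Counted for each member in turn, so that cells repeat, neighbours were members in 11.6% and 48.1% within 25 µm, 9.10% and 43.7% within 100 µm, and 5.29% and 8.17% after thinning. Genes higher past 2-fold numbered 4 in the control against cells within 100 µm and 34 without *Nnat*. In the KO they numbered 14 against cells with *Gad1* or *Gad2*, 13 within 100 µm, 8 in the medial zone and 45 without *Nnat*. KO over control, 50 genes were lower after thinning, of which 25 had under 3 counts on a side and 4 had an interval below 0, so that this count rests mostly on few counts. Here 9 were higher and 14 lower after subtracting the ratio of other cells, and 41 were higher in the medial zone.

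Signs turned in 6 cases. *Gad1* in the control was -0.78 against cells with *Gad1* or *Gad2*, which share the gene by choice, and *Rasgrf2* -0.037 within 100 µm. In the medial zone *Cacng5* was -0.057 (control) and -0.025 (KO) and *Dlk1* -0.15 (control). *Cd24a*, KO over control, was -0.025 after subtracting the other cells, because its ratio was 2.14 in members and 2.16 in those cells. The causes for *Rasgrf2*, *Cacng5* and *Dlk1* were not tested. The medial zone and the scaling without *Nnat* were chosen after seeing the data, and named genes with under 3 counts on a side got no value. Depth limits the control most, where members rest on a median of 3 counts of the 4 genes. No paired analysis was possible because each group is 1 section.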
